A study of Mus musculus with 6 samples.

Results

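The genes described here encode chaperones of the endoplasmic reticulum and the sensors of unfolded protein in that compartment. They are 10 genes chosen by name: the sensors Ern1 and Atf6, the transcription factor Xbp1, the chaperones and folding enzymes Hspa5, Hsp90b1, Calr, Pdia4, Dnajb9 and Sdf2l1, and the degradation factor Herpud1. Each has a single row among the 43346 genes of the count table, and all 10 passed the low-count filter, which left 15583 genes for testing. RNA was sequenced from the gastrocnemius, a calf muscle, of male mice aged 6 months. In all of them exon 3 of Vdr, the vitamin D receptor gene, was flanked by loxP sites (Vdrfl/fl), and all carried the actin iCre transgene Tg(ACTA1-cre/Esr1*)2Kesr, a tamoxifen-dependent Cre recombinase under the skeletal actin promoter. The knockout group was 3 mice injected with tamoxifen at 100 mg/kg for 5 days, and the vehicle group was 3 mice injected with 10% ethanol in corn oil, 1 library per mouse. Both groups were listed with the same diet, of equal calcium and vitamin D3 content. Muscle was taken after tests of glucose tolerance and strength that were made 10 days after the last injection. The Cre acts in muscle fibres, so the other cells of the muscle keep their receptor gene, and tamoxifen exposure and deletion cannot be told apart between these groups. In bulk tissue, fewer cells of a type and less RNA per cell cannot be told apart either.

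Proteins that enter the secretory pathway fold in the endoplasmic reticulum with the help of lumenal chaperones, of which HSPA5 (BiP) is the best known. When unfolded protein builds up there, the membrane sensors IRE1 (Ern1), ATF6 and PERK (Eif2ak3) start the unfolded protein response: IRE1 splices the Xbp1 message into the form that encodes an active factor, ATF6 is cut to release a transcription factor, and PERK slows translation. In muscle fibres most of this membrane is specialised as sarcoplasmic reticulum, the calcium store of contraction, which still relies on the same folding machinery.

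The sequence by which IRE1 acts lies within the Xbp1 message and is shown because a count per gene cannot see it. In the GENCODE M21 transcript Xbp1-201 the stretch that IRE1 removes spans 26 bases of exon 4 (mm10 chr11:5524279-5524304, plus strand), in capitals below with the coding bases on either side in lower case. With it the reading frame has 267 codons, and without it 371. Reads of both forms were added together in the deposited count, so splicing was not measured here.
Xbp1: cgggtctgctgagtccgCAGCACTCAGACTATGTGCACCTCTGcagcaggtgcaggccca

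In promoters, ATF6 and XBP1 are known to act through the endoplasmic reticulum stress element (ERSE, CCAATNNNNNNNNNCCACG) and its variant ERSE-II (ATTGGNCCACG). RefSeq promoter windows (GRCm38.p6, 250 bases before to 50 after the start) were at hand for 9 of the 10 genes. On either strand, ERSE was found in the windows of Hspa5, Hsp90b1 and Calr, and in 0.119% of the 32851 windows of all genes. ERSE-II was found in the window of Herpud1 and in 0.0365% of all windows, and TGACGTGG, the core of another XBP1 and ATF6 element that holds the complement of CCACG and so can overlap the other elements, was found in 0 of the 9 and in 0.676% of all windows. A match is a description of letters and not evidence of binding. The genes were chosen by name as chaperones and sensors of this response, so the shares of all windows give scale only. Enrichment was not tested. The 250 bases upstream of the RefSeq start follow for the 4 genes with a match, each 5′ to 3′ on the gene's strand with the matches in capitals, because these genes carry the same kind of element and can be compared with their levels further on.
Hspa5, chr2:34771840-34772089, plus strand: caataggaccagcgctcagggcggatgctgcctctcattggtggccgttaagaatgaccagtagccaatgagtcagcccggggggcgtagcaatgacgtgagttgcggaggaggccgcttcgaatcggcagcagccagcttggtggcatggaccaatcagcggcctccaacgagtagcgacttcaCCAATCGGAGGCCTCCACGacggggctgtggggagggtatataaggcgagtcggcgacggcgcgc
Hsp90b1, chr10:86705445-86705694, minus strand: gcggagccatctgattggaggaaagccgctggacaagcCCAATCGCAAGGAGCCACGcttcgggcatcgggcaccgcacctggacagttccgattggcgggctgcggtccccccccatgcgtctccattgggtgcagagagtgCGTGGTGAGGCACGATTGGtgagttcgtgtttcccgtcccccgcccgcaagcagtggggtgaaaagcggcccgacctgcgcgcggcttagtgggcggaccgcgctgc
Calr, chr8:84846932-84847181, minus strand: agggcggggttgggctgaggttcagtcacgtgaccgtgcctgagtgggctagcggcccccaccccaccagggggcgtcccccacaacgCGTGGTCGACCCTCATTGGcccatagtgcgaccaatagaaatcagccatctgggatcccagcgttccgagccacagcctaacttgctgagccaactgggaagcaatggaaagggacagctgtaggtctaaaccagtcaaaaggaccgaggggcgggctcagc
Herpud1, chr8:94386179-94386428, plus strand: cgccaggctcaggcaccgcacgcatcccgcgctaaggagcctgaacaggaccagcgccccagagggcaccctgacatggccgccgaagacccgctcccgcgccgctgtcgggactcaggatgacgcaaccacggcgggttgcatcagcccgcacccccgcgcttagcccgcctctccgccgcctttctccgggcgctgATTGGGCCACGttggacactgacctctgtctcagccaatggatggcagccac
In Hspa5 the element lies 65 to 47 bases before the RefSeq start. Hsp90b1 has 2 elements, at 212 to 194 bases on the gene's strand and at 107 to 89 bases on the opposite strand. In Calr it lies at 162 to 144 bases on the opposite strand, and in Herpud1 ERSE-II lies at 52 to 42 bases. Only exact matches to the letters given were sought, so variant copies of an element are neither marked nor counted.

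The libraries held 30486874 to 39909535 counted reads. A floor of 3 reads was 0.0752 to 0.0984 CPM (counts scaled to library size), which covers counting error only, and each of the 10 genes lay well above it. Knockout replicate 2 stood apart: it had the fewest reads, and its 10 most abundant genes took 15.1% of reads, against 20.8% to 25.2% in the other libraries. The summed level of 10 fast-fibre markers ran from 87314 CPM, in that library, to 220672 CPM in knockout and from 184691 to 210106 CPM in vehicle libraries. That of 10 slow-fibre markers ran from 6201 to 32826 CPM in knockout and from 1233 to 10164 CPM in vehicle libraries, and 0 of these markers were at 0. Vdr, the targeted gene, had 52, 27 and 40 reads in the knockout libraries, in order of replicate, and 46, 48 and 61 reads in those of the vehicle group (log2 fold change -0.37, SE 0.37; edgeR adjusted p = 0.848). The counted gene extends far beyond the deleted exon, so these reads check the labels only in part.

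No gene of the 10 was called different between knockout and vehicle muscle, and the estimates were small. The 10 fold changes of knockout over vehicle ran from 0.846 for Herpud1 to 1.31 for Sdf2l1, and 6 genes had a higher and 4 a lower estimate, where 52.9% of all genes tested had a higher one. The median log2 fold change was 0.06, beside 0.02 for all genes tested, and was 0.02 without knockout replicate 2. On the log2(FPKM + 0.1) scale 9 estimates were higher and the median was 0.16, but there 64.2% of all genes were higher too, with a median of 0.10. With edgeR's quasi-likelihood test 0 of the 10 passed an adjusted p of 0.05 (0% of all genes tested passed), and 0 of 10 were below an unadjusted 0.05, where 7.44% of all genes were. DESeq2 called 0 of the 10 as well, with 0.7% called among the genes it adjusted. These tests do not show that the groups were equal, and the intervals give what differences the data leave room for. The 95% interval lay within a 2-fold change for 9 of the 10 genes, all except Sdf2l1, and within a 1.5-fold change for 6.

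**Figure D1:**
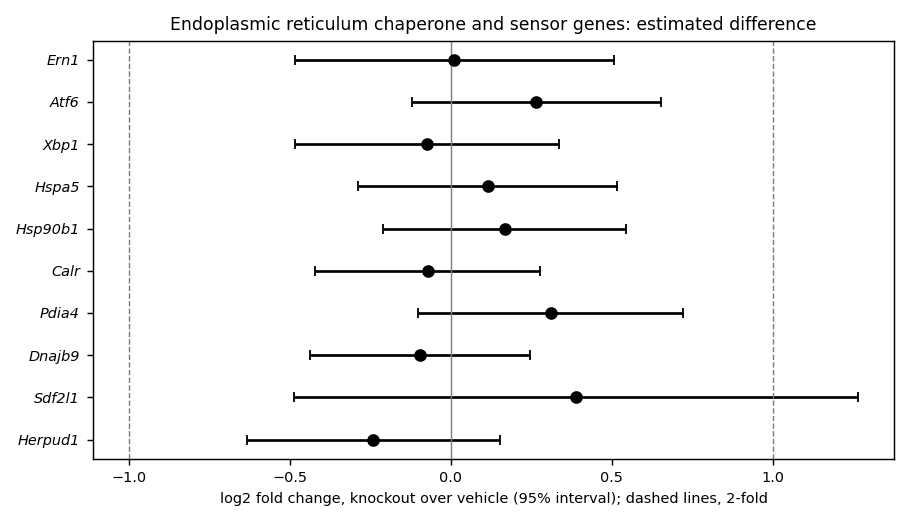
Log2 fold change of knockout over vehicle muscle for each gene (points) with its 95% interval from edgeR (bars, n = 3 per group). All 10 intervals cross 0, and only that of Sdf2l1 crosses the dashed line of a 2-fold change.

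Among the sensors, Ern1, which encodes the kinase and endoribonuclease IRE1, had 9.16, 10.8 and 12.0 CPM in knockout libraries 1, 2 and 3, against 11.9, 12.0 and 7.80 CPM in vehicle libraries 1, 2 and 3, an order of replicates kept for every gene. The groups overlapped fully, with the lowest value in vehicle replicate 3. Its log2 fold change was 0.01 (SE 0.22; edgeR adjusted p = 0.997), with a 95% interval from -0.48 to 0.51.

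Atf6, the membrane-bound transcription factor, had 44.9, 53.0 and 49.5 CPM in knockout and 39.1, 48.7 and 34.7 CPM in vehicle libraries. Vehicle replicate 2 lay among the knockout values, and the other vehicle libraries lay below them. The mean was 49.1 ± 4.03 CPM in knockout and 40.9 ± 7.12 CPM in vehicle muscle (SD, n = 3 each), a 1.20-fold difference (95% interval 0.919 to 1.57; edgeR adjusted p = 0.753). The log2 fold change of 0.27 was 0.16 without vehicle replicate 3 and 0.40 without vehicle replicate 2.

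Xbp1, the factor that IRE1 activates by splicing, had 93.9, 70.7 and 83.1 CPM in knockout against 78.1, 79.6 and 103 CPM in vehicle libraries. The highest value was in vehicle replicate 3 and the lowest in knockout replicate 2. The log2 fold change was -0.07 (SE 0.18; edgeR adjusted p = 0.9496), with a 95% interval from -0.48 to 0.34. Its sign turned without knockout replicate 2 (0.03) or without vehicle replicate 3 (0.06).

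Hspa5, which encodes the lumenal HSP70 chaperone BiP, was the most abundant of the group. It had 301, 349.95 and 284 CPM in knockout and 293, 292 and 279.7 CPM in vehicle libraries. Knockout replicate 2 was the highest library, and knockout replicate 3 lay among the vehicle values. The vehicle libraries were tight, at 288 ± 7.27 CPM, beside 312 ± 34.1 CPM in knockout (SD, n = 3 each). The fold change was 1.08 (95% interval 0.818 to 1.43; edgeR adjusted p = 0.909), and without knockout replicate 2 its log2 value was 0.02 in place of 0.11.

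Hsp90b1, the lumenal HSP90 known as GRP94, had 168, 203 and 165 CPM in knockout against 157, 158 and 162 CPM in vehicle libraries. It was the only gene of the 10 whose groups did not overlap, and the gap was narrow, at 165 CPM in knockout replicate 3 and 162 CPM in vehicle replicate 3. Of all genes tested 12.3% did not overlap, and in 5.83% every knockout library was the higher. Its log2 fold change was 0.17 (SE 0.17; edgeR adjusted p = 0.846) and was 0.07 without knockout replicate 2. GENCODE M21 places exons of other genes on both strands over part of Hsp90b1, and the strand setting of the counting is not given in the sources used here.

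Calr, the calcium-binding lectin chaperone calreticulin, varied least. It had 138, 134 and 128 CPM in knockout and 136, 134 and 149.9 CPM in vehicle libraries, so that 5 of the 6 libraries lay between 128 and 138 CPM and vehicle replicate 3 above them. The log2 fold change was -0.07 (SE 0.16; edgeR adjusted p = 0.9403), with a 95% interval from -0.42 to 0.28.

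Pdia4, a protein disulfide isomerase, had the smallest p of the 10. It had 12.0, 16.9 and 14.02 CPM in knockout against 12.1, 11.4 and 11.1 CPM in vehicle libraries. Knockout replicates 2 and 3 lay above every vehicle library, and knockout replicate 1 lay among them. The mean was 14.3 ± 2.47 CPM in knockout and 11.6 ± 0.537 CPM in vehicle muscle (SD, n = 3 each), a log2 fold change of 0.31 (SE 0.18; edgeR unadjusted p = 0.123, adjusted p = 0.734), with a 95% interval from -0.10 to 0.72. Without knockout replicate 2 it was 0.17.

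Dnajb9, a J-domain partner of HSPA5 also called ERdj4, had 24.0, 22.3 and 24.4 CPM in knockout and 22.3, 25.9 and 27.3 CPM in vehicle libraries. The groups overlapped, and its log2 fold change was -0.10 (SE 0.15; edgeR adjusted p = 0.909).

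Sdf2l1, an HSPA5-associated lumenal protein, was the scarcest by reads, with 56, 79 and 35 reads in knockout and 41, 42 and 49 reads in vehicle libraries. In CPM these were 1.63, 2.29 and 0.935 in knockout against 1.27, 1.15 and 1.28 in vehicle, so the knockout group held both the highest and the lowest library. Its log2 fold change of 0.39 had the widest interval of the 10, -0.49 to 1.27 (SE 0.39; edgeR adjusted p = 0.848), and was 0.05 without knockout replicate 2.

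Herpud1, a membrane protein of the machinery that retrieves misfolded protein for degradation, had the lowest estimate. It had 153, 118 and 137 CPM in knockout and 146, 163 and 173 CPM in vehicle libraries. Only knockout replicate 1 exceeded a vehicle library. The mean was 136 ± 17.7 CPM in knockout and 160.5 ± 13.8 CPM in vehicle muscle (SD, n = 3 each), a log2 fold change of -0.24 (SE 0.18; edgeR adjusted p = 0.785), with a 95% interval from -0.63 to 0.15. Without knockout replicate 2 it was -0.15.

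**Figure D2:**
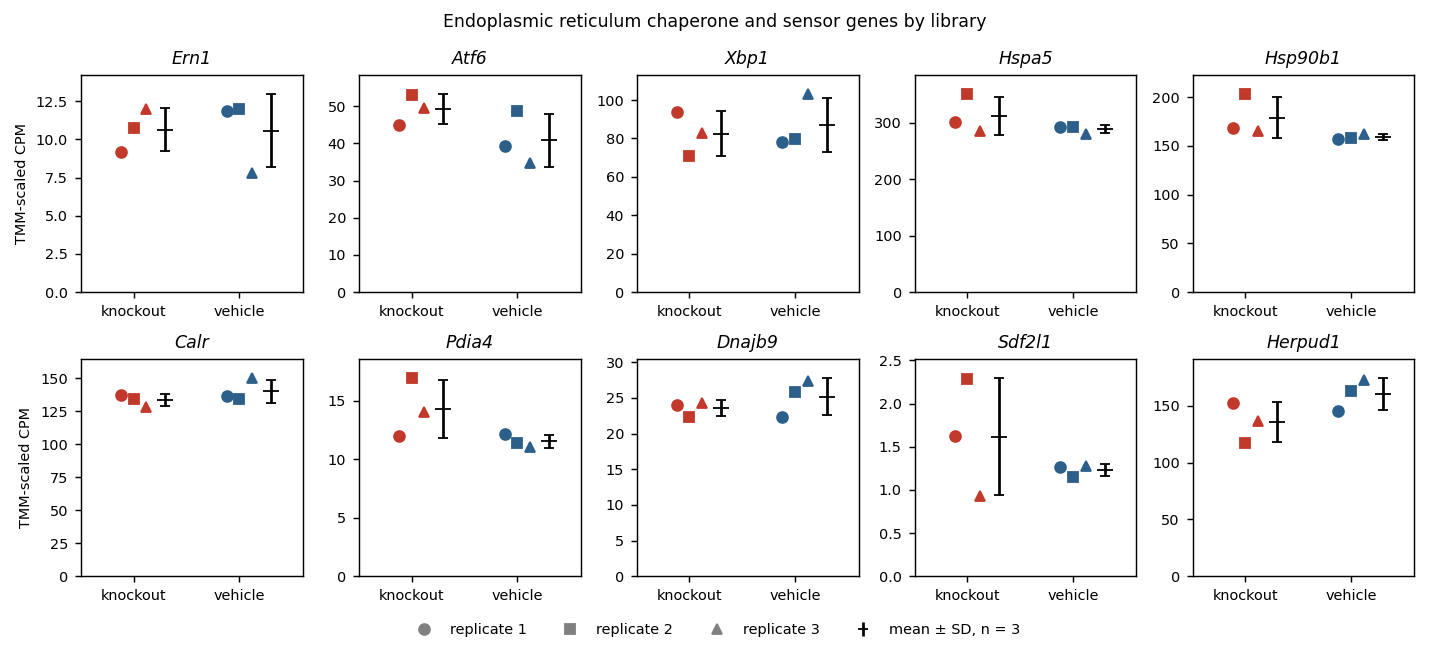
TMM-scaled CPM (vertical axes from 0) of each gene in the 3 knockout and 3 vehicle libraries, with the group mean and SD beside the points. The groups overlap in 9 of the 10 genes, and knockout replicate 2 (red square) is the highest library in 5 of them, among them Hspa5 at 349.95 and Pdia4 at 16.9 CPM.

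Levels between genes can be set side by side only per length, as in the deposited FPKM, which scale reads to gene length and library total. Over all 6 libraries Hspa5 had a mean of 71.3 FPKM, Herpud1 63.1, Calr 47.5, Hsp90b1 42.2, Xbp1 25.97, Dnajb9 13.1, Pdia4 5.28, Atf6 4.92, Ern1 1.304 and Sdf2l1 1.2998. Neighbours in this order whose ranges overlapped were Hspa5 and Herpud1, Calr and Hsp90b1, Pdia4 and Atf6, and Ern1 and Sdf2l1. The other steps were clear, since the lowest library of one gene lay above the highest of the next: 57.1 FPKM for Herpud1 against 52.8 for Calr, 37.4 for Hsp90b1 against 30.4 for Xbp1, 23.1 for Xbp1 against 14.1 for Dnajb9, 11.5 for Dnajb9 against 7.73 for Pdia4, and 3.62 for Atf6 against 1.56 for Ern1. Both sensors thus stood near the bottom of the order, beside Pdia4 and Sdf2l1. Hspa5 exceeded Herpud1 in 4 of the 6 libraries. The ratio of Herpud1 to Hspa5 was 0.9198, 0.609 and 0.873 in knockout libraries and 0.903, 1.01 and 1.121 in vehicle libraries, so the groups overlapped.

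**Figure D3:**
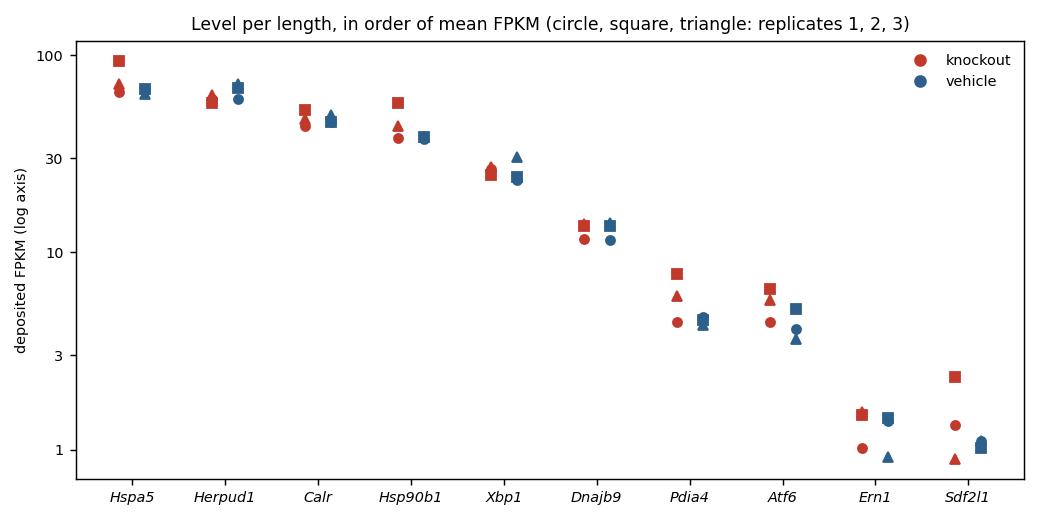
Deposited FPKM of each gene (log axis) in every knockout library (red) and vehicle library (blue), ordered by mean. The values fall from between 63.5 and 93.8 FPKM for Hspa5 to between 0.897 and 2.34 FPKM for Sdf2l1.

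Relatives of these chaperones in the cytosol and mitochondria lay both above and below them. The cytosolic HSP70 Hspa8 averaged 378 FPKM and the mitochondrial HSP70 Hspa9 152 FPKM over the 6 libraries, above the 71.3 FPKM of Hspa5, while the stress-induced cytosolic Hspa1a and Hspa1b averaged 2.92 and 2.27 FPKM. The cytosolic HSP90 Hsp90ab1 averaged 381 FPKM, above the 42.2 FPKM of Hsp90b1, while the other cytosolic HSP90, Hsp90aa1, stood below it at 19.5 FPKM, and the mitochondrial HSP90 Trap1 averaged 71.9 FPKM. The cytosolic J-domain proteins Dnaja1 and Dnajb1 averaged 6.09 and 6.83 FPKM, below the 13.1 FPKM of Dnajb9. Of these 9 relatives 8 had a lower estimate for knockout (47.1% of all genes tested did). Their median log2 fold change was -0.24, and was -0.11 without knockout replicate 2 and -0.39 without knockout replicate 1. None of the 9 passed in edgeR, 0 were below an unadjusted 0.05, and DESeq2 called 0. The smallest p values were those of Hspa1a at -0.61 (SE 0.50), Dnajb1 at -0.38 (SE 0.36) and Hspa1b at -0.50 (SE 0.48). Hspa1a had 6.02, 10.1 and 4.49 CPM in knockout and 19.4, 6.36 and 5.69 CPM in vehicle libraries. Hspa1b had 4.36, 7.41 and 3.95 CPM in knockout and 13.8, 4.66 and 3.89 CPM in vehicle libraries. Vehicle replicate 1 was thus by far the highest library for both. Hspa1a and Hspa1b are near-identical copies whose reads can be misassigned.

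The 10 genes did not vary together across the libraries. Relative to its own mean over the 6 libraries (log2 CPM), knockout replicate 2 was the highest library for 5 genes, at 0.23 for Hspa5, 0.27 for Hsp90b1, 0.40 for Pdia4, 0.25 for Atf6 and 0.72 for Sdf2l1. The same library was the lowest for Herpud1 at -0.32, Xbp1 at -0.25 and Dnajb9 at -0.12. Vehicle replicate 3 showed the opposite order: it was the highest for Xbp1 at 0.29, Herpud1 at 0.23, Dnajb9 at 0.17 and Calr at 0.13, and the lowest for Hspa5 at -0.10, Pdia4 at -0.21, Atf6 at -0.36 and Ern1 at -0.42. These libraries also had the highest and the lowest mean of the slow-fibre markers, at 0.07, 2.45 and 0.78 in knockout and 0.76, -1.94 and -2.13 in vehicle libraries. Within both groups Pdia4 had the same order of libraries as the slow-fibre mean and Xbp1 and Herpud1 the reverse order, and the other 7 genes had neither in both groups. Macrophage markers were at -0.59, 1.01 and 1.08 in knockout and 0.01, -0.47 and -1.04 in vehicle libraries, and fibroblast markers at -0.56, 0.93 and 0.66 in knockout and -0.16, -0.08 and -0.80 in vehicle libraries. In summed level, 10 macrophage markers ran from 50.7 to 157 CPM in knockout and from 39.5 to 72.3 CPM in vehicle libraries, and 8 fibroblast markers from 562 to 1552 CPM in knockout and from 584 to 819 CPM in vehicle libraries, with 0 of either list at 0. Adipocyte markers were at 0.77, 1.32 and -0.33 in knockout and -0.24, -0.13 and -1.39 in vehicle libraries, and their summed level over 6 genes ran from 276 to 787 CPM in knockout and from 230.3 to 336 CPM in vehicle libraries. All 6 adipocyte markers had a higher estimate, with a median log2 fold change of 1.29. Of these, 5 were below an unadjusted 0.05 (4.02% of all genes were, on the higher side) and none passed in edgeR. So did all 10 macrophage markers (median 1.25, 8 below an unadjusted 0.05), all 8 fibroblast markers (0.96, 2) and all 10 slow-fibre markers (1.90, 2) have higher estimates. All 5 Schwann cell markers (median -0.65) and 9 of 10 fast-fibre markers (median -0.35) had lower ones. None of these passed in edgeR either. In the knockout group Hspa5, Hsp90b1 and Sdf2l1 had the same order of libraries as the adipocyte mean, and in the vehicle group Ern1 and Atf6 had it, but no gene of the 10 had it in both groups. Atf6 had the same order as the fibroblast mean within both groups. No gene of the 10 had the order of the macrophage mean, or its reverse, in both groups. The part of fibre type and of these cells in the levels of the 10 genes was not tested. With 3 libraries a group few orders are possible, and the share of all genes that match a marker mean in order was not counted. Plasma cells are rich in these chaperones, and of 8 lymphocyte and plasma cell markers only Ighm and Igkc passed the low-count filter. Of these 2, 1 had a lower estimate, at a log2 fold change of -0.008, and 1 a higher one, at 1.94. The higher one was below an unadjusted 0.05 (4.02% of all genes were, on the higher side). Neither passed in edgeR. Ighm had 185, 46.1 and 152 CPM in knockout and 113.1, 113.5 and 158 CPM in vehicle libraries, and Igkc at most 1.77 CPM in any library. Jchain (listed as Igj) and Mzb1, which mark antibody-secreting cells, had at most 0.494 and 0.704 CPM.

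**Figure D4:**
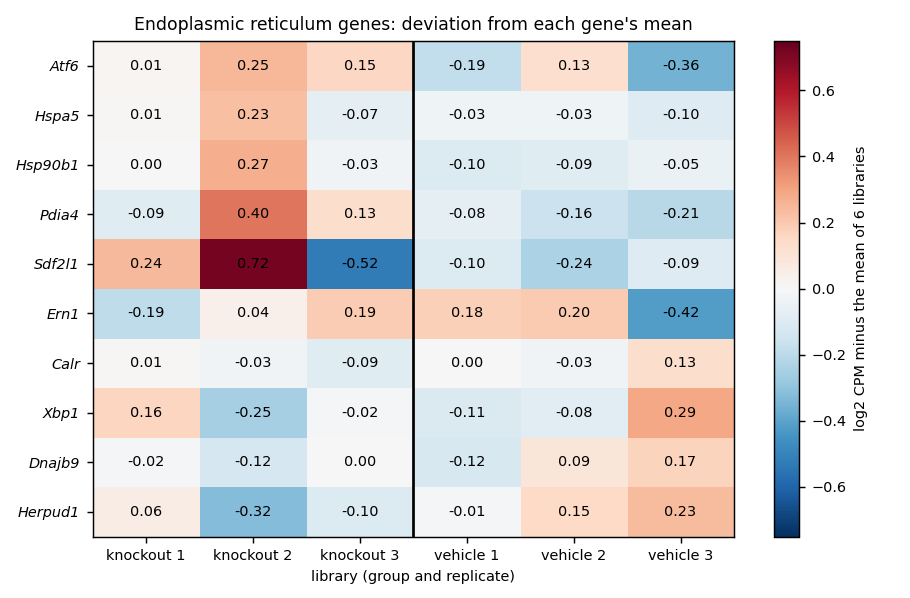
Log2 CPM of each gene in each library minus the gene's mean over the 6 libraries (colour and printed value, rows are genes, columns are libraries). Knockout replicate 2 is high for the upper 5 genes, up to 0.72 for Sdf2l1, and low for Xbp1, Dnajb9 and Herpud1, and vehicle replicate 3 runs the other way for most of them.

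Genes with ERSE or its variant ERSE-II differed in their deviations across the libraries. The measure used here counts the size of a gene's deviations as well as their order, so its ranks do not give the pattern alone. Hspa5 and Hsp90b1, which both hold ERSE, were alike: of 7129 named protein-coding genes with a mean of at least 10 CPM, Hsp90b1 had the 6th smallest root mean square difference from Hspa5 (0.0484 in centred log2 CPM over the 6 libraries). Calr, which holds ERSE too, was at rank 754 (0.141), and Herpud1 with ERSE-II at rank 4253 (0.273). Pdia4 was at rank 679, Atf6 at 1357, Dnajb9 at 2087, Ern1 at 3480 and Xbp1 at 3985. Among the genes ranked ahead of Hsp90b1 were Arfip1, Rqcd1, the proton pump subunit Atp6v1c1 and the nuclear matrix protein Matr3, at 0.0380 to 0.0483. These 4 had a high value in knockout replicate 2, from 0.17 to 0.20.

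Other folding genes of the endoplasmic reticulum were not called different either. Of 24 further lumenal folding genes, 12 had a higher and 12 a lower estimate, and the log2 fold changes had a median of -0.00019 and a range from -0.31 to 0.39. None passed in edgeR, 0 were below an unadjusted 0.05, and DESeq2 called 0. Of the 24, 1 was higher in every knockout library (5.83% of all genes were) and 3 were lower in every one (6.48% of all genes were). The smallest p was that of Canx, the membrane-bound partner of calreticulin, at 103 ± 10.9 CPM in knockout and 78.2 ± 12.8 CPM in vehicle muscle (SD, n = 3 each; log2 fold change 0.39, SE 0.18; edgeR adjusted p = 0.674). Manf, a secreted protein of the stress response, was at 0.32 (SE 0.19), and the prolyl isomerase Ppib at 0.33 (SE 0.21).

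Of the 20 genes of endoplasmic reticulum-associated degradation, the pathway of Herpud1, 19 could be tested and Derl3 did not pass the filter. Of these 9 had a higher and 10 a lower estimate, with a median of -0.02. Os9, a lectin that recognises misfolded glycoproteins, had 23.2 ± 4.54 CPM in knockout and 16.2 ± 1.55 CPM in vehicle muscle (SD, n = 3 each), a log2 fold change of 0.52 (SE 0.19; edgeR unadjusted p = 0.0191, adjusted p = 0.636), with no overlap between the groups. Derl2 did not overlap either, so 2 of the 19 were higher in every knockout library (5.83% of all genes were). The ubiquitin-conjugating enzyme Ube2g2 was at 0.51 (SE 0.21; edgeR adjusted p = 0.651) and its relative Ube2j1 at -0.35 (SE 0.20; edgeR adjusted p = 0.732). None of the 19 passed in edgeR, 2 were below an unadjusted 0.05, both higher (4.02% of all genes were, on that side), and DESeq2 called 0.

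Among 10 tested sensors and regulators of the response, 7 had a higher and 3 a lower estimate, and Ern2, the gut form of IRE1, was at 0 in every library. The PERK gene Eif2ak3 had 2.97, 4.02 and 5.24 CPM in knockout and 4.06, 3.95 and 2.19 CPM in vehicle libraries, so the groups overlapped. Traf2, an adaptor that binds IRE1, was at -0.40 (SE 0.18), the stress kinase Map3k5 at 0.53 (SE 0.26) and the protease Mbtps2, which cuts ATF6, at -0.22 (SE 0.17). Of the 10, only Traf2 did not overlap between the groups, lower in every knockout library (6.48% of all genes were). None passed in edgeR, 0 were below an unadjusted 0.05, and DESeq2 called 0.

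In the PERK branch, Atf3 and Ppp1r15a had the lowest estimates. Atf3, a stress-induced factor, had 85.8 ± 10.1 CPM in knockout and 248 ± 27.5 CPM in vehicle muscle, and Ppp1r15a, which directs the dephosphorylation of eIF2α, 31.5 ± 3.23 CPM in knockout and 65.9 ± 16.0 CPM in vehicle muscle (SD, n = 3 each; edgeR adjusted p = 0.058 and 0.343). Atf4, the factor whose translation PERK favours, was at -0.28 (SE 0.19; edgeR adjusted p = 0.769). The list of 10 had 3 higher and 7 lower estimates with a median of -0.04, and apart from Atf3 and Ppp1r15a its members lay between -0.28 and 0.80. Atf3, Ppp1r15a and Atf4 did not overlap between the groups, all 3 lower (6.48% of all genes were). None passed in edgeR. Atf3 and Ppp1r15a were below an unadjusted 0.05 (7.44% of all genes were) and were called by DESeq2 (0.7% of the genes it adjusted were). Ddit3, the stress factor CHOP, was looked up after its values were seen: it had 15.8, 36.7 and 19.2 CPM in knockout and 22.9, 18.3 and 13.2 CPM in vehicle libraries, with knockout replicate 2 the highest.

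Genes of the translocation channel and signal peptidase, by which proteins enter the endoplasmic reticulum, mostly had lower estimates: 11 of 14 were lower in knockout (47.1% of all genes were) and 5 did not overlap between the groups, all lower (6.48% of all genes were). The median was -0.22, and was -0.13 without vehicle replicate 3 and -0.12 on the log2(FPKM + 1) scale. The signal peptidase subunit Spcs3 had 28.1 ± 1.49 CPM in knockout and 38.5 ± 8.02 CPM in vehicle muscle (SD, n = 3 each; log2 fold change -0.45, SE 0.18; edgeR adjusted p = 0.645). Ssr2, of the translocon-associated complex, was at -0.37 (SE 0.15) and Spcs2 at -0.33 (SE 0.16). None of the 14 passed in edgeR, 2 were below an unadjusted 0.05 (3.42% of all genes were, on the lower side), and DESeq2 called 0. In summed level these genes had 864 to 972 CPM in knockout and 965 to 1193 CPM in vehicle libraries, so the groups overlapped at knockout replicate 1 and vehicle replicate 1.

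Calcium-binding proteins of the sarcoplasmic and endoplasmic reticulum had 4 higher and 5 lower estimates among 9, with a median of -0.01. Casq2, the calsequestrin of slow and cardiac fibres, was at 1.79 (SE 0.66; edgeR adjusted p = 0.645) and is itself one of the slow-fibre markers that separated the libraries. The reticulocalbins Rcn1 and Rcn3 were at 0.51 (SE 0.25) and 0.43 (SE 0.25). None passed in edgeR, 1 of 9 was below an unadjusted 0.05 (7.44% of all genes were), and DESeq2 called 0.

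**Figure D5:**
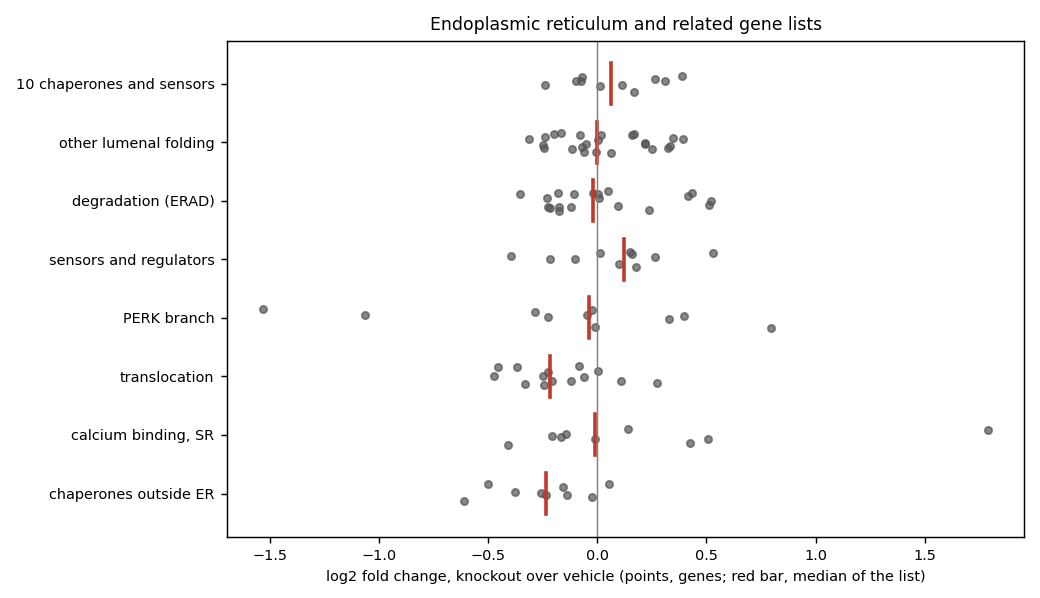
Log2 fold change of knockout over vehicle muscle for the tested genes of each list (points) with the list's median (red bar). The medians lie between -0.24 for chaperones outside the endoplasmic reticulum and 0.12 for the sensors and regulators, and the points farthest from 0 are Atf3 at -1.53 and Casq2 at 1.79.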

How the data were processed

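The sources are a deposited table of read counts and FPKM per gene for 6 gastrocnemius libraries, made by poly(A) selection with strand marking (TruSeq Stranded mRNA), per the labels' protocols. The tools were STAR 2.6.1c, bcl2fastq and, for counting, featureCounts (Subread 1.5.1) on mm10, per the submitters' processing notes. The sources used here do not give the annotation release or the strand setting. The deposited FPKM equal the count over listed length plus 1 base and over the library total, without further scaling, so they follow library composition.

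Counts of all genes were fitted in R 4.3.3 with edgeR 4.0.16 (filterByExpr with a minimum count of 10 and total of 15, TMM, robust quasi-likelihood F test, two-sided, Benjamini-Hochberg over 15583 genes, threshold 0.05). TMM factors ran from 0.912 to 1.13. Standard errors come from the F statistic and CPM use TMM-scaled totals. Common biological variation was 0.270. Centred values use log2 CPM with a prior count of 2. The fit was tested on simulated counts. Alternatives used DESeq2 1.42.0, limma 3.58.1, other scalings and filters, and left out each library. Every pair of libraries differed by more than sampling noise (chi-square per degree of freedom at least 40.5), and mice are separate, so each counted as a replicate. Groups came from the phenotype label; replicate numbers are only names.

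The 10 genes and the lists were chosen with earlier results of these data known. All 10 are named, and of each other list any gene past the threshold or else the 3 of smallest p. The other 6 chaperone relatives outside the endoplasmic reticulum, Eif2ak3, Ddit3, Ighm, Igkc, Jchain and Mzb1 were added after values were seen. Lists were described by counts and medians, with no set test. Of the 5 genes most like Hspa5 across the libraries, 1 is not reported here.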

Additional observations from a re-analysis of the deposited data

How the results depend on the processing

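No paired analysis was possible because the labels give no replicate numbers or pairing. Of the 10 genes, 0 passed the threshold under each of the 14 alternatives. Over all genes the count was 0 and became 109 with the DESeq2 Wald test, 29 with no low-count filter and 4 with DESeq2 size factors in edgeR, and it ran from 0 to 24 when a library was left out, with 24 without knockout replicate 1 and 6 without knockout replicate 2. Among the other pathway genes it was 0 and became 2 with DESeq2, 2 with no low-count filter and 1 with DESeq2 size factors, and ran from 0 to 1 when a library was left out (1 without knockout replicate 1 or 2). Which of these counts is nearer the truth was not tested. Signs near 0 turned. Ern1, at 0.01, was at -0.0045 with DESeq2 size factors, -0.0044 with DESeq2, -0.09 without knockout replicate 3 and -0.17 without vehicle replicate 3, in a range from -0.17 to 0.106 over the 6 fits that left out a library. Xbp1, at -0.07, was at 0.0211 on log2(FPKM + 0.1), 0.0201 on log2(FPKM + 1), 0.0259 without knockout replicate 2 and 0.0644 without vehicle replicate 3, in a range from -0.18 to 0.0644 over those 6 fits. On those 2 FPKM scales Dnajb9 was at 0.000472 and 0.000351 and Calr at 0.02196 and 0.0216. Hspa5, Hsp90b1, Atf6, Sdf2l1, Pdia4 and Herpud1 held their sign in all 14. With 3 mice a group, the width of the intervals limits what can be seen. Sdf2l1 had the fewest reads of the 10, 35 to 79, and its log2 CPM had an SD of 0.65 in knockout and 0.085 in vehicle libraries. How far read depth widened its interval was not tested. Leaving out a library gave Atf6 values from 0.159 to 0.402, Dnajb9 from -0.178 to -0.0365, Calr from -0.113 to -0.0233, Hspa5 from 0.0227 to 0.173 and Sdf2l1 from 0.053 to 0.662, and over those fits the median of the degradation list ran from -0.134 to 0.0279, of the PERK branch from -0.183 to 0.0041, of the sensors and regulators from 0.00933 to 0.143 and of the calcium-binding proteins from -0.193 to 0.073. FPKM are not scaled for library composition: on their 2 scales the median of all genes was 0.0978 and 0.0609, 9 of the 10 genes were higher beside 64.2% and 64.6% of all genes, and the medians of the 10 were 0.157 and 0.133.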
